A study of Mus musculus with 20 samples.

Results

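Astrocytes of the cerebral cortex were followed in these data through 32 genes, 16 that are typically induced when astrocytes become reactive and 16 that mark astrocytes at rest. The reactive genes were Gfap, Vim, Serpina3n, Lcn2, Cd44, Osmr, Cp, S1pr3, Tspo, Cd109, Ggta1, Srgn, Emp1, Tm4sf1, Cd14 and Steap4. The homeostatic genes were Aqp4, Slc1a2, Slc1a3, Aldh1l1, Aldoc, Gja1, Gjb6, Glul, S100b, Sox9, Fgfr3, Slc4a4, Acsbg1, Mlc1, Slc7a10 and Ntsr2. Members were taken by their symbol from the gene counts of each library, and all 32 were found among the 24421 symbols listed.

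RNA-seq was performed on the neocortex and the hippocampus of male and female mice aged 3 months, on a C57BL/6J and 129 hybrid background, with 5 libraries per genotype and region and 20 in all. The cTKO mice carried floxed App, Aplp1 and Aplp2 together with a Camk2a-Cre transgene, which removes the amyloid precursor protein family from excitatory neurons of the forebrain after birth. The controls were littermates with the same floxed alleles and no Cre, named wild type in the sample labels. The deletion is therefore not directed at astrocytes, and all members were read in whole tissue, where fewer astrocytes and less RNA per astrocyte cannot be told apart.

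Astrocytes take up glutamate and potassium released by active neurons, convert glutamate to glutamine, move water at their perivascular endfeet and are joined to one another by gap junctions. After injury, inflammation or neuronal loss they enlarge and become reactive, with more of the intermediate filament proteins GFAP and vimentin, and cytokines that signal through gp130, such as the ligand of the oncostatin M receptor Osmr, activate STAT3 in them. In the healthy rodent brain, hippocampal astrocytes are rich in GFAP, whereas most cortical gray matter astrocytes hold little of it.

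The libraries held 12169474 to 25331954 counted reads, and 3 reads, the floor used here, corresponded to 0.123 to 0.247 CPM, the counts of a gene per 1e+06 counted reads. App was 331 to 407 CPM in the neocortex of cTKO mice against 1501 to 1810 CPM in controls, and in hippocampal libraries 432 to 460.6 CPM where controls had 1377 to 1646 CPM, with both other targeted genes also below the range of controls in every cTKO library. A list of 14 embryonic and proliferation genes, among them the fetal globin gene Hbb-y, summed to 761 CPM in cTKO neocortex library 5 and 503 CPM in cTKO hippocampus library 4, against 6.19 to 11.3 CPM in the other 18 libraries. Of these 14 genes 1 was at 0 in each of both libraries and 2 to 7 were at 0 in the others. These 2 libraries stood apart from the rest, and the main results that rest on them are also given without them. Their listed fibroblast and meningeal genes summed to 878 and 649.8 CPM, where control libraries of the same region held 222 to 373 CPM and 250.3 to 670.2 CPM.

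Per kilobase of exon (RPKM), the homeostatic genes of glutamate handling and glycolysis led the set in controls. Glul, which encodes glutamine synthetase, averaged 542 RPKM in the neocortex and 645 RPKM in the hippocampus. The glial glutamate transporter genes Slc1a2 and Slc1a3 averaged 320.0 and 81.8 RPKM in the neocortex, and 345 and 122 RPKM in the hippocampus. Aldoc, the aldolase of astrocytes, lay between them at 242 and 339 RPKM. Gfap held place 10 of 32 in the neocortex (26.5 RPKM) and place 5 in the hippocampus (101 RPKM). Among the 31 neighbouring pairs in this order, the ranges of the 5 libraries overlapped in 18 pairs in the neocortex and 23 in the hippocampus, so that many neighbours did not differ beyond their spread. Lcn2, a secreted iron-siderophore carrier, and Steap4, a metalloreductase, were lowest, with 0 to 6 and 0 to 36 reads per library. Both fell below the filter on low counts (over 1 CPM in at least 5 of 10 libraries), which left 14 of 16 reactive and 16 of 16 homeostatic genes to test.

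Promoter sequence from RefSeq (GRCm38.p6, 250 bases before to 50 after the start site) was matched by symbol for 27 of the 32 members, and it is shown because STAT3 is the transcription factor tied to reactive genes. Tspo, Cd109, Cd14, Aqp4 and Sox9 had no match. The palindromic STAT core TTCNNNGAA, which reads the same on both strands, was present in 7 of the 33 promoters of these members, those of 3 reactive and 4 homeostatic genes, and in 8.3% of all 32851 promoters of this length. The sites, in capitals, were:
Steap4: TTCCCGGAA
Emp1: TTCTTTGAA
Emp1: TTCATAGAA
Gfap: TTCCAGGAA
Acsbg1: TTCATTGAA
Aldoc: TTCAGTGAA
Aldoc: TTCCAGGAA
Ntsr2: TTCCCAGAA
Slc1a3: TTCCAAGAA
The palindromic nuclear factor I motif, TTGGC and GCCAA with 5 bases between them on either strand, was found in none of the 27 and in 0.0365% of all promoters. For Gfap, whose values the comparisons below turn on, the core began 2 bases before the RefSeq start site of its window. That window lies inside the GENCODE span of Gfap (chr11:102887336-102900912, minus strand), so this start is not the upstream end of the gene. The Gfap promoter (GRCm38.p6, chr11:102897151-102897450, minus strand) is printed 5′ to 3′ with the core in capitals:
Gfap: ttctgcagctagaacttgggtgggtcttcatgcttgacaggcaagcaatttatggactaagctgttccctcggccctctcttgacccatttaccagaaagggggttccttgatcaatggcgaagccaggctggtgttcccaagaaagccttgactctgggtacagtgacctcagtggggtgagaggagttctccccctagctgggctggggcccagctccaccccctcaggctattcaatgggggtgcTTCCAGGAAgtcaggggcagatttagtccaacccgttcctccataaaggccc
These matches describe letters in the window and were not tested for binding.

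**Figure D1:**
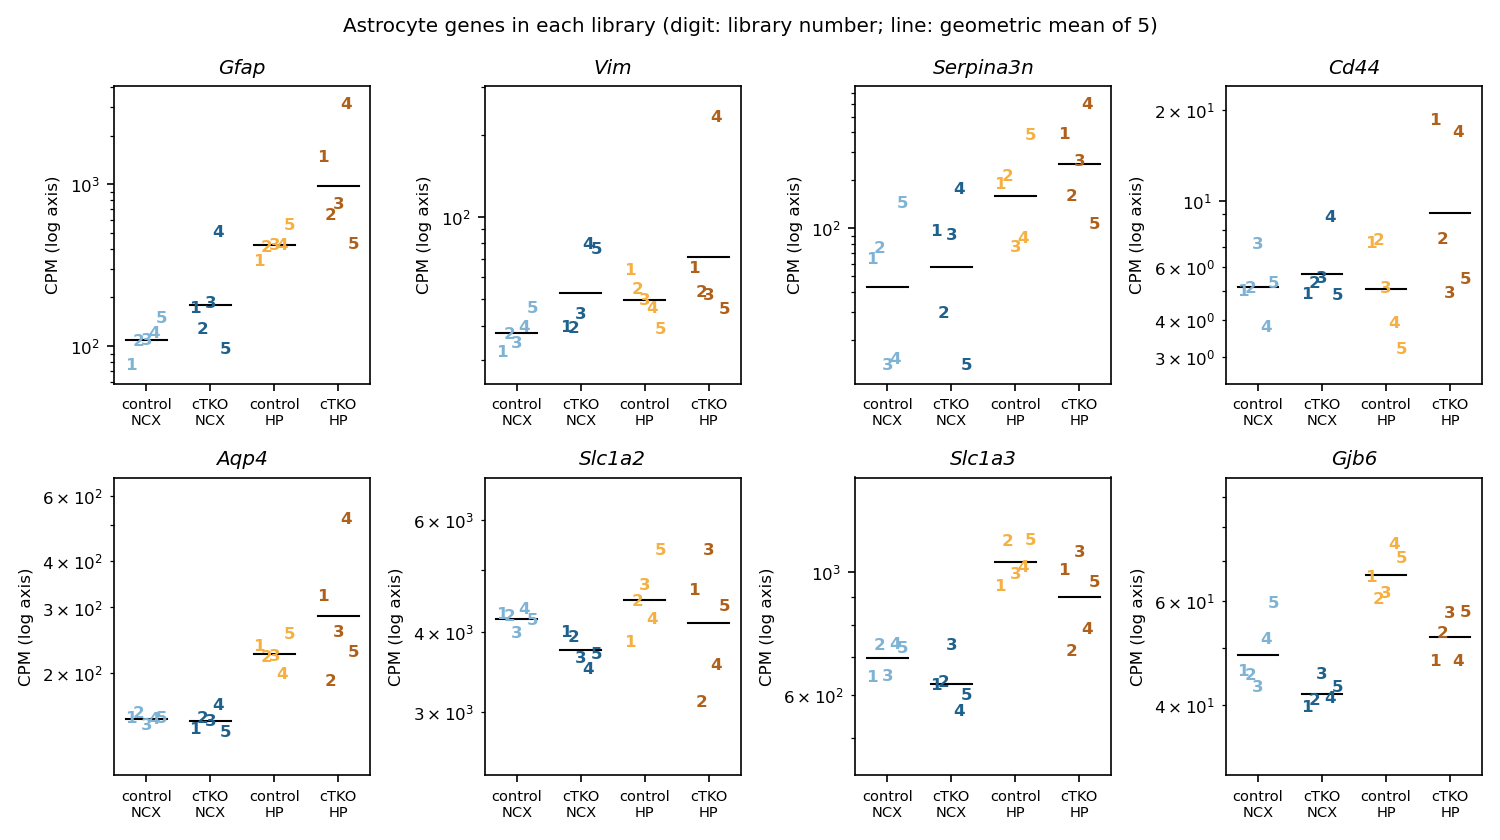
CPM on a log axis (a separate axis for each gene) for 4 reactive genes (top) and 4 homeostatic genes (bottom) in the neocortex (NCX) and hippocampus (HP). Each digit is 1 library with its number and each line is the geometric mean of 5. Gfap of cTKO hippocampus library 4 reaches 3110 CPM, and the Gjb6 values of cTKO and control hippocampus do not overlap.

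In the neocortex, no reactive or homeostatic gene passed the test between cTKO mice and controls at a false discovery rate (FDR) of 5% (edgeR, quasi-likelihood, with the Benjamini-Hochberg adjustment over 13843 genes), where 26 genes or 0.188% of those tested did. By sign, 13 of 14 reactive genes had a positive log2 fold change, against 52.2% of all genes, and 14 of 16 homeostatic genes had a negative one, against 47.8%. The median log2 fold change was 0.22 for the reactive genes and -0.090 for the homeostatic genes, beside 0.0062 for all genes. Without cTKO library 5, 11 of the 13 reactive genes still tested (Tspo fell below the filter) were positive (median 0.22) and 9 of 16 homeostatic genes negative (median -0.048). Without cTKO libraries 4 and 5 these counts were 9 of 13 (median 0.19) and 10 of 16 (median -0.036). Library 4, the highest of the cTKO group in Gfap and Vim, did not stand apart in its embryonic genes (8.32 CPM). These libraries were chosen after their values were seen, so leaving both out, here and below, favours lower reactive values. The 10 listed fibroblast and meningeal genes had a median log2 fold change of 0.46 in this comparison, with 9 positive and 6 higher at an unadjusted p under 0.05, and summed to 296 to 321 CPM in cTKO libraries 1 to 4 and 878 CPM in library 5. Their part in the reactive genes was not tested. An unadjusted p under 0.05 was reached by 4 reactive genes, all higher in cTKO mice (Gfap, Vim, Cd109 and Emp1), and by 3 homeostatic genes, all lower (Slc1a2, Gjb6 and Mlc1). Among all genes, 5.32% were higher and 5.06% lower at that threshold.

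Gfap, the intermediate filament gene used most widely to detect reactive astrocytes (ENSMUSG00000020932, GRCm38 chr11:102887336-102900912), was 76.4, 107, 108, 119 and 149 CPM in control neocortex libraries 1 to 5. In cTKO neocortex libraries 1 to 5 it was 170.0, 127, 184, 505 and 95.1 CPM. Library 4 was more than 2 times as high as any other cTKO library, libraries 2 and 5 were within the controls, and the groups overlapped. The log2 fold change was 0.95 (SE 0.36, FDR 0.365 by the quasi-likelihood test), or 1.94-fold with a 95% interval of 1.13 to 3.31, and permuting the genotypes of the 10 log2 CPM values gave an exact two-sided p of 0.103. Without cTKO library 4 the log2 fold change was 0.37 (SE 0.19), and without cTKO library 5 it was 1.14 (SE 0.32).

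Vim, which encodes the partner filament vimentin, was 31.9, 37.1, 34.5, 39.2 and 46.3 CPM in the 5 control neocortex libraries and 39.3, 39.1, 44.0, 79.0 and 76.0 CPM in the 5 cTKO libraries. The last 2 cTKO libraries lay above all controls and the first 3 among them. The log2 fold change was 0.56 (SE 0.20, FDR 0.341), and it was 0.11 (SE 0.11) once cTKO libraries 4 and 5 were both left out.

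Serpina3n, a secreted serine protease inhibitor and one of the reactive genes that respond to the widest range of injuries, was 63.5, 74.6, 13.9, 15.1 and 143 CPM in control neocortex and 94.8, 29.4, 89.9, 174 and 13.9 CPM in cTKO neocortex. Controls alone spanned 13.9 to 143 CPM, and of the cTKO libraries library 4 alone lay above that range. The log2 fold change was 0.38 (SE 0.64, 95% interval -0.99 to 1.75). Serpina3n belongs to a cluster of closely related genes, among which the counting may have divided reads.

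The other 11 reactive genes tested in the neocortex had log2 fold changes between -0.20 (Tspo, a mitochondrial cholesterol-binding protein) and 1.10 (Emp1, an epithelial membrane protein). Emp1 was 11.7 CPM in cTKO neocortex library 5 against 1.76 to 2.75 CPM in the other cTKO libraries and 1.60 to 2.43 CPM in controls. S1pr3, a sphingosine 1-phosphate receptor, was 27.5 CPM in the same library against 9.25 to 11.1 CPM in the others of its group. Without this library, which stood apart in its embryonic genes, the log2 fold change fell to 0.30 for Emp1 (SE 0.21). Cd109, a membrane protein that binds transforming growth factor β, had a log2 fold change of 0.49 (SE 0.22, FDR 0.450), and 0.20 (SE 0.21) without cTKO libraries 4 and 5.

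The homeostatic genes of the neocortex held closer together than the reactive genes. Aqp4, the water channel of the endfeet, was 150.3, 155, 144, 149 and 151 CPM in controls and 141, 151, 148, 163 and 138 CPM in cTKO mice, with a log2 fold change of -0.014 (SE 0.055, 95% interval -0.13 to 0.10). Slc1a2, the glutamate transporter GLT-1, was 4271, 4239, 3980, 4342 and 4179 CPM in controls and 3996, 3932, 3645, 3505 and 3695 CPM in cTKO mice. The lowest control lay just below the highest cTKO library, and the log2 fold change was -0.16 (SE 0.056, FDR 0.330; exact permutation p = 0.0159).

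Slc1a3, the glutamate transporter GLAST, was 643, 737, 648, 738 and 728 CPM in controls and 622, 630.4, 736, 558 and 597 CPM in cTKO mice, with a log2 fold change of -0.15 (SE 0.076, FDR 0.526). Aldh1l1, a folate enzyme used as a marker of all astrocytes, was 53.0, 53.6, 55.0, 57.5 and 62.5 CPM in controls and 52.4, 57.9, 54.9, 57.7 and 41.1 CPM in cTKO mice. The low Aldh1l1 value came from cTKO library 5, and the groups otherwise overlapped (log2 fold change -0.087, SE 0.087). Gjb6, the gap junction gene of connexin 30, was 45.6, 44.9, 42.9, 51.7 and 59.5 CPM in controls and 39.6, 40.7, 45.2, 41.1 and 42.8 CPM in cTKO mice (log2 fold change -0.22, SE 0.088, FDR 0.407). The other 11 homeostatic genes had log2 fold changes between -0.17 (Aldoc) and 0.20 (Sox9, a transcription factor of astrocyte identity), and the lowest FDR among all 16 was 0.330.

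In the hippocampus, again no member passed the test at an FDR of 5%, where 67 of 13702 genes or 0.489% did. Of the 14 reactive genes, 11 had a positive log2 fold change, against 51.6% of all genes, with a median of 0.50 beside 0.0049 for all genes. Of the 16 homeostatic genes, 10 had a negative log2 fold change, against 48.4% of all genes, with a median of -0.090. Without cTKO library 4, 8 of 14 reactive genes were positive (median 0.11), and without cTKO libraries 1 and 4, 5 of 14 were (median -0.063), so that the sign of the median turned. The homeostatic genes were negative in 10 of 16 (median -0.061) and 13 of 16 (median -0.14) under the same omissions. Library 1 did not stand apart in its embryonic genes (8.77 CPM). Libraries 1 and 4 held the highest Gfap values of the cTKO group and were chosen after these were seen. Leaving both out, here and below, therefore lowers the reactive values by construction. At an unadjusted p under 0.05, 3 reactive genes were higher in cTKO mice (Gfap, Cd44 and Cd14), 3 homeostatic genes were lower (Gjb6, Glul and Slc4a4) and Sox9 was higher, where 6.13% of all genes were higher and 5.88% lower.

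**Figure D2:**
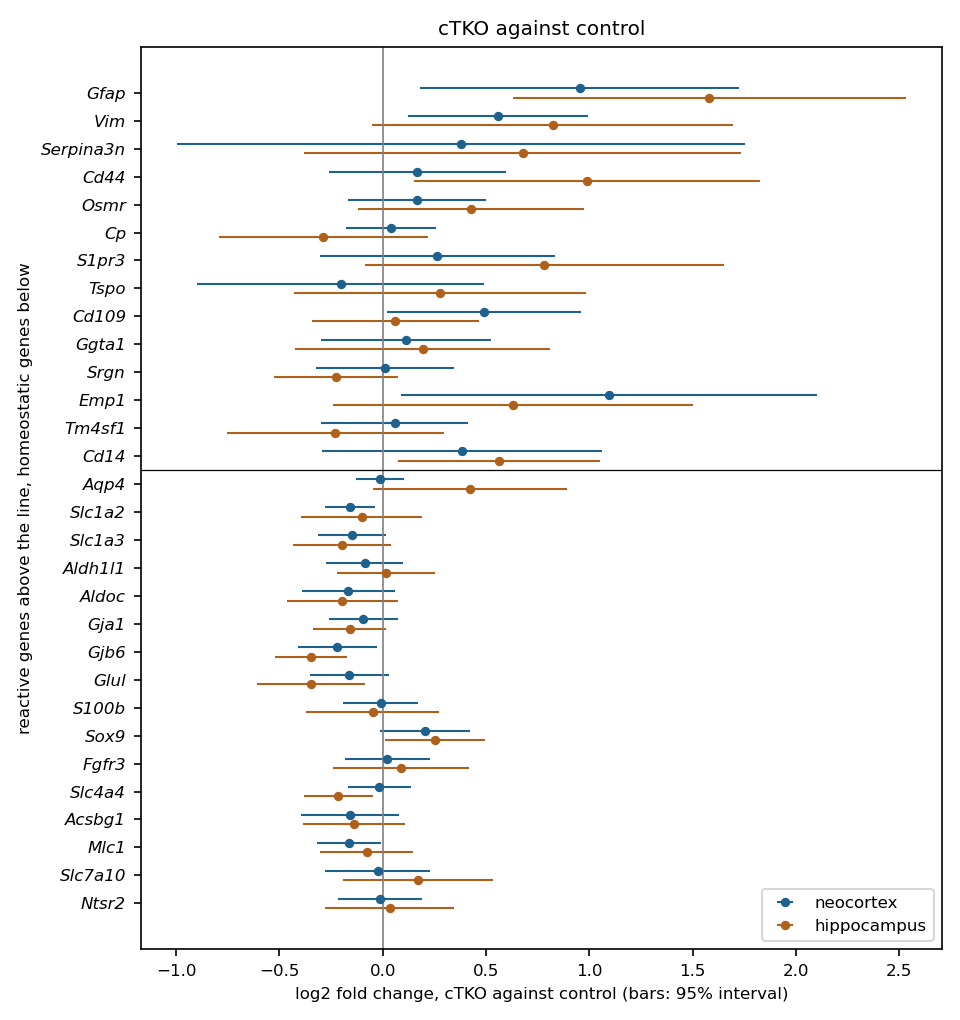
Log2 fold change of each tested member in cTKO mice against controls (points) with its 95% interval (bars), for the neocortex and the hippocampus with 5 libraries per genotype. Intervals of the reactive genes above the line are wider than those of most homeostatic genes below it, and Gfap has the highest value in the hippocampus at 1.58.

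Gfap was 333, 405, 419, 417 and 556 CPM in control hippocampus libraries 1 to 5 and 1454.5, 637, 745, 3110 and 426 CPM in cTKO hippocampus libraries 1 to 5. Of the 5 cTKO libraries, 4 lay above every control and library 5 lay among the controls. The log2 fold change was 1.58 (SE 0.44, FDR 0.163 by the quasi-likelihood test), or 2.99-fold with a 95% interval of 1.55 to 5.78, and the exact permutation test gave p = 0.0159. The FDR was 0.0209 in the exact test of edgeR and 0.0194 in its likelihood ratio test. The value rested in large part on single libraries: without cTKO library 4, whose embryonic genes stood apart, the log2 fold change was 0.94 (SE 0.28, FDR 0.192 by the quasi-likelihood test), and without libraries 1 and 4 it was 0.49 (SE 0.17, FDR 0.330). The exact permutation p was 0.0159 for 5 against 5 libraries and at most 0.0714 with any 1 library left out.

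Vim was 63.6, 54.2, 49.5, 46.0 and 38.7 CPM in control hippocampus and 64.5, 53.0, 51.5, 232 and 45.7 CPM in cTKO hippocampus. The value of 232 CPM came from library 4, and the other 4 cTKO libraries matched the range of controls apart from a value of 64.5 CPM against a highest control of 63.6 CPM. The log2 fold change was 0.82 (SE 0.40, FDR 0.446) with library 4 and 0.090 (SE 0.14) without it.

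Serpina3n was 189, 211, 76.2, 86.4 and 382 CPM in control hippocampus and 384, 158, 263, 597 and 106 CPM in cTKO hippocampus, with a log2 fold change of 0.68 (SE 0.49, FDR 0.652). The groups overlapped, and without libraries 1 and 4 the log2 fold change was -0.11 (SE 0.46).

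The remaining reactive genes of the hippocampus fell into surface receptors, secreted or lipid-related proteins and small membrane proteins. Cd44, the hyaluronan receptor, was 3.19 to 7.34 CPM in controls and 18.5, 7.40, 4.91, 16.8 and 5.46 CPM in cTKO mice (log2 fold change 0.99, SE 0.39, FDR 0.339). Only libraries 1 and 4 were well above the controls, and without both the log2 fold change was 0.14 (SE 0.27). Osmr was 7.94 to 11.6 CPM in controls and 20.9, 6.44, 13.0, 14.6 and 9.40 CPM in cTKO mice (log2 fold change 0.43, SE 0.25, FDR 0.551). S1pr3 reached 22.9 CPM in library 1 and 31.1 CPM in library 4, against a highest control value of 9.74 CPM. Cd14, a coreceptor for bacterial lipopolysaccharide, was 1.21 to 2.61 CPM in controls and 2.20 to 3.45 CPM in cTKO mice (log2 fold change 0.56, SE 0.23, FDR 0.349). Cp, which encodes the copper-carrying ferroxidase ceruloplasmin, Srgn, a proteoglycan core protein, and Tm4sf1, a tetraspanin-like protein, had negative log2 fold changes of -0.29, -0.23 and -0.23, none with an unadjusted p under 0.05.

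Gjb6, in the hippocampus, was the only one of the 30 tested members whose libraries did not overlap between genotypes in a region, and in the neocortex, where 2.36% of all genes showed no overlap, none did. It was 65.7, 60.5, 61.7, 74.7 and 70.9 CPM in control hippocampus and 47.4, 52.8, 57.1, 47.5 and 57.4 CPM in cTKO hippocampus. All 5 cTKO libraries were below all 5 controls, as was the case for 1.23% of the genes tested. The log2 fold change was -0.35 (SE 0.081, FDR 0.0927 by the quasi-likelihood test), and the exact permutation p of 0.00794 was the smallest that 5 against 5 libraries can give. This p is unadjusted and restates the lack of overlap by which Gjb6 was picked out. The FDR was 0.0133 under edgeR's exact test, 0.0133 under its likelihood ratio test, 0.00767 under the DESeq2 Wald test and 0.0430 in a single fit of all 20 libraries. Without cTKO libraries 1 and 4 the log2 fold change was -0.26 (SE 0.080, FDR 0.247), and with 1 library left out in turn it stayed between -0.38 and -0.30.

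The glutamate and water genes of the hippocampus were more scattered than in the neocortex. Glul was 1881 to 2524 CPM in controls and 1254 to 2019.7 CPM in cTKO mice (log2 fold change -0.35, SE 0.12, FDR 0.274), and -0.23 (SE 0.10) without libraries 1 and 4. Slc1a2 was 3862, 4473, 4734, 4184 and 5371 CPM in controls and 4658, 3114, 5364, 3554 and 4389 CPM in cTKO mice (log2 fold change -0.10, SE 0.14). Slc1a3 was 941, 1133, 987, 1019.9 and 1139 CPM in controls and 1007, 719, 1083, 787 and 957 CPM in cTKO mice (log2 fold change -0.20, SE 0.11). For both transporters, libraries 2 and 4 were the lowest of the cTKO group and the groups overlapped.

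Aqp4 was 236, 220.4, 222, 197 and 253 CPM in control hippocampus and 321, 189.8, 257, 517 and 227 CPM in cTKO hippocampus. Library 4 held 2 times as much as any control, and the log2 fold change was 0.42 (SE 0.22, FDR 0.471) with it and 0.14 (SE 0.13) without it. Aldh1l1 was 46.2, 51.1, 49.98, 42.4 and 50.6 CPM in controls and 48.8, 43.4, 47.7, 63.3 and 40.0 CPM in cTKO mice, so that library 4 was again the highest and the others overlapped with controls (log2 fold change 0.016, SE 0.11). Slc4a4, the sodium bicarbonate cotransporter of astrocytes, was 207 to 251 CPM in controls and 176 to 227 CPM in cTKO mice (log2 fold change -0.21, SE 0.078, FDR 0.296). Sox9 was 41.9 to 61.8 CPM and 46.6 to 63.8 CPM (log2 fold change 0.25, SE 0.11, FDR 0.391). The other homeostatic genes had log2 fold changes between -0.20 (Aldoc) and 0.17 (Slc7a10, a serine and glycine transporter).

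**Figure D3:**
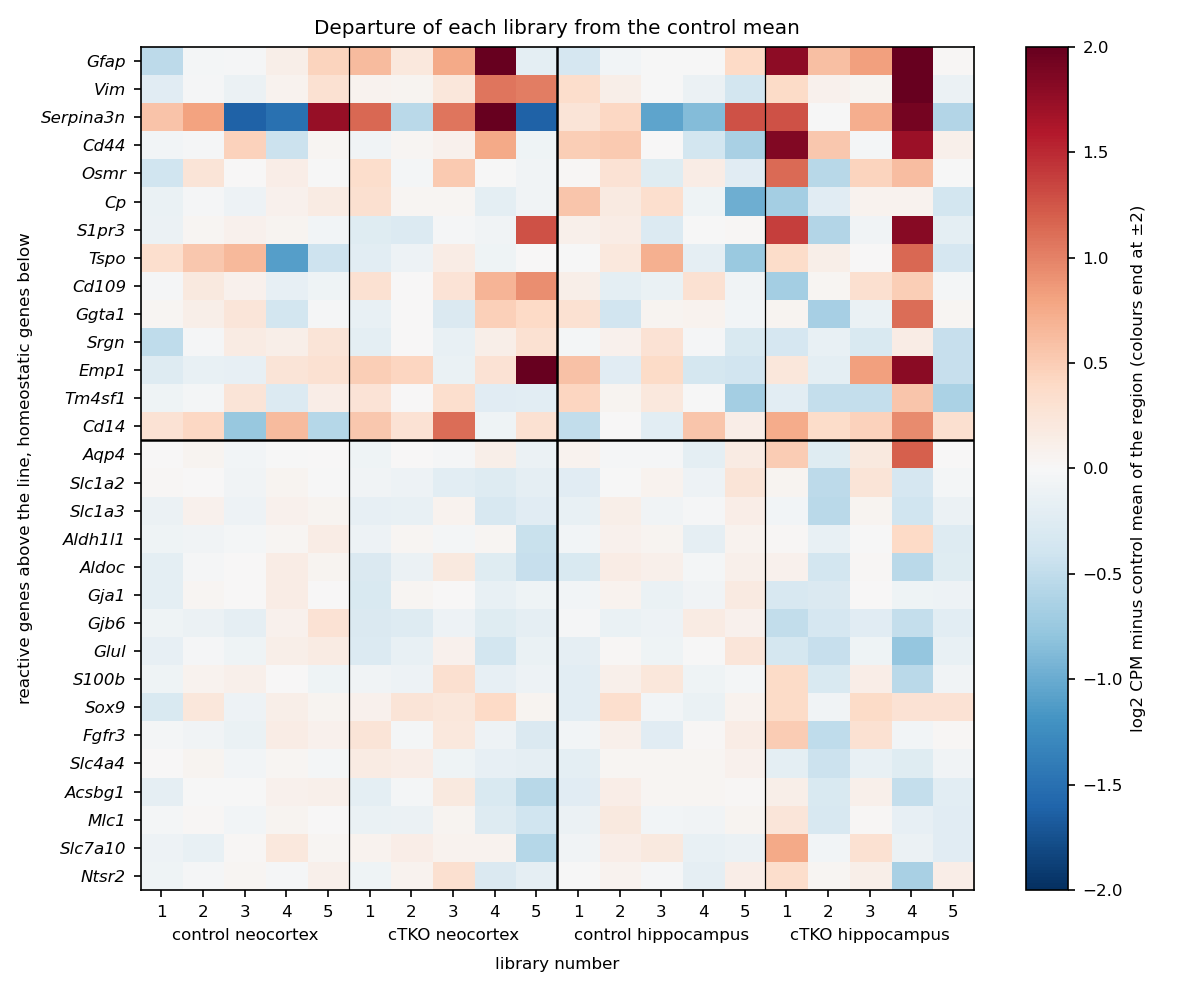
Each cell is the log2 CPM of a tested member in 1 library minus the mean of the 5 controls of that region, with colours ending at 2 in either direction. In cTKO hippocampus library 4 all 14 reactive genes lie above the control mean, and cTKO hippocampus library 1 and cTKO neocortex library 4 are high for Gfap, Serpina3n and some others.

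The departures were unequal between libraries of the same genotype. In cTKO hippocampus library 4, all 14 reactive genes were above the control mean, 10 of them were the highest of the 10 hippocampal libraries, and their median departure was 1.14 on the log2 scale, while the median of the homeostatic genes was -0.29. In cTKO hippocampus library 1, whose embryonic list was at 8.77 CPM, 10 of 14 reactive genes were above the control mean, with a median of 0.37. Control hippocampus libraries 1 and 2 also had 10 of 14 above it, with medians of 0.18 and 0.11. Of the homeostatic genes of cTKO hippocampus library 1, 11 of 16 were above the control mean, with a median of 0.11. In cTKO hippocampus libraries 2, 3 and 5, the median departure of the reactive genes was -0.075, 0.061 and -0.16. That of the homeostatic genes was -0.31, 0.083 and -0.12 in the same libraries, so library 2 was the lowest without a rise of its reactive median. The embryonic list was at 503 CPM in library 4 of the hippocampus. In the neocortex it was at 8.32 CPM in cTKO library 4 (Gfap 505 CPM) and at 761 CPM in cTKO library 5 (Gfap 95.1 CPM). Its part in the values of Gfap, Vim, S1pr3, Emp1 and the other reactive genes was not tested. Some reactive genes are also known from other cells, Cd14, Srgn and Tspo from microglia and Vim, Emp1 and S1pr3 from vascular and meningeal cells. The 10 listed microglia genes summed to 532 CPM in cTKO hippocampus library 4 and 495 CPM in library 1, against 427 to 500.3 CPM in the control hippocampus, none of them at 0, and their part in the reactive genes was not tested.

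Among libraries of 1 genotype and region, the SD of log2 CPM had a median of 0.26, 0.36, 0.33 and 0.65 over the 14 reactive genes in control neocortex, cTKO neocortex, control hippocampus and cTKO hippocampus. Over the 16 homeostatic genes it was 0.11, 0.17, 0.13 and 0.26, and over all 14192 genes 0.13, 0.18, 0.13 and 0.19. The reactive genes thus varied more between libraries than the homeostatic genes in each of the 4 groups, and both classes had their highest median in cTKO hippocampus. Sampling noise is larger at few reads. Tspo had 6 to 30 and Cd14 8 to 36 reads in control neocortex, and no homeostatic gene fell below 256 in any library. The medians were not matched for level, and the part of this noise was not tested. The cTKO hippocampus medians were not computed without library 4.

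Both regions were then set side by side. The sign of the log2 fold change was positive in both regions for 10 of 14 reactive genes and negative in both for none, and it was negative in both for 10 of 16 homeostatic genes and positive in both for Sox9 and Fgfr3. The share of all genes with the same sign in both regions was not computed. Both regions were dissected from the same mice, so their agreement is not independent. Without cTKO neocortex library 5 and cTKO hippocampus library 4, 7 of 13 reactive genes were positive in both and 1 negative in both, and of the homeostatic genes 9 were negative in both and 6 positive in both. Without cTKO neocortex libraries 4 and 5 and cTKO hippocampus libraries 1 and 4, the reactive counts were 4 and 3 of 13, and the homeostatic genes were negative in both for 10 and positive in both for 3. The difference between the genotype effects of the regions was tested with an interaction term over all 20 libraries. No term linked the regions of a mouse, so the 20 libraries were taken as independent, which they are not. In this edgeR quasi-likelihood fit none of the 30 tested members reached an FDR under 5%, as 8 of 14192 genes (0.0564%) did, and none had an unadjusted p under 0.05, as 3.75% of genes did. The effect in the hippocampus minus that in the neocortex was 0.63 for Gfap (SE 0.62, 95% interval -0.65 to 1.91), and 0.82 for Cd44 (SE 0.47, 95% interval -0.15 to 1.80). With 1 library left out in turn, the Gfap value ranged from -0.021 to 1.21.

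**Figure D4:**
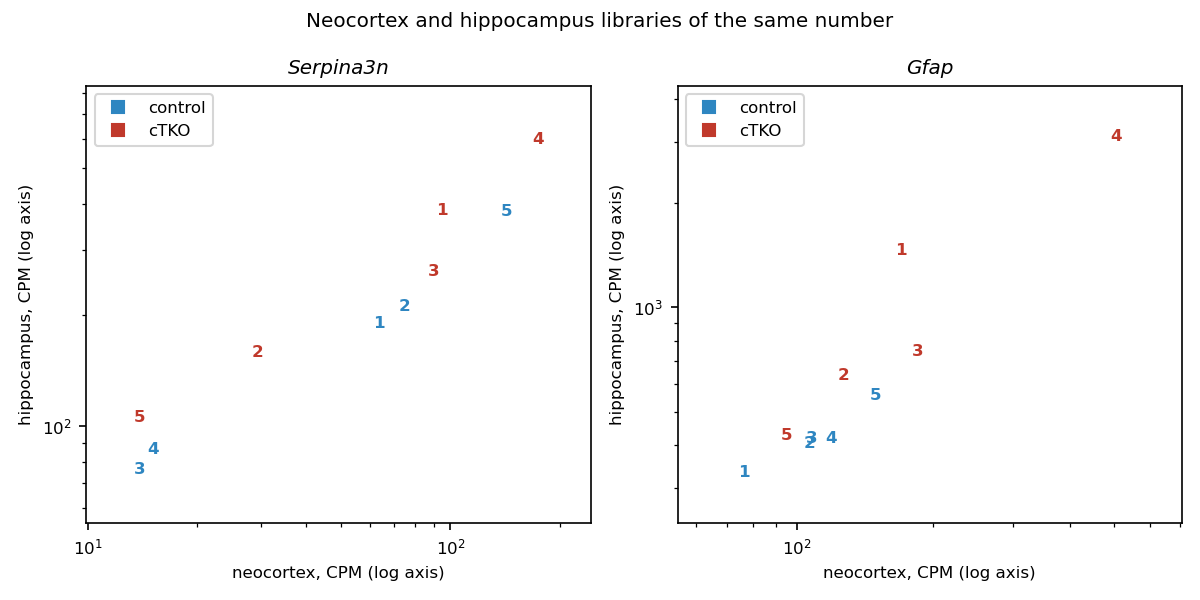
CPM of Serpina3n (left) and Gfap (right) in the hippocampus against the neocortex library of the same number, on log axes, for 5 control and 5 cTKO numbers (digits). Serpina3n follows the same order of numbers in both regions within each genotype.

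Serpina3n followed the library number across regions, a pattern chosen after its values were seen. Both regions were dissected from 5 mice of each genotype, and the labels do not say that a number marks a mouse. Over all genes, the deviations of cTKO neocortex and hippocampus libraries correlated at 0.32 to 0.40 for numbers 1 to 3 but at -0.056 and -0.071 for numbers 4 and 5, each of which correlated best with another number, so a shared number is not shown to mean the same mouse there. In control neocortex and control hippocampus alike, library 5 was highest, followed by 2, 1, 4 and 3, and in both cTKO groups library 4 was highest, followed by 1, 3, 2 and 5. The deviations from the 4 group means of log2 CPM had a Pearson's r of 0.984 over the 10 numbers (exact permutation p = 6.94e-05, the smallest that 14400 pairings within genotypes can give) and a Spearman's rho of 1 (exact permutation p = 0.000139), and r was 0.972 without the 2 numbers farthest from the median. Serpina3n was chosen among 14192 genes for this order, so these unadjusted p-values restate the choice and do not test it. They also take all 10 numbers as pairs, which was not shown for cTKO numbers 4 and 5. The same order in both genotypes was found for 7 genes or 0.0493%, and 6 genes had a higher r. The median r was 0.096 over all genes, 0.20 over the reactive genes and 0.50 over the homeostatic genes, with 0.93 for Gfap and 0.84 for Glul.

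In controls, the comparison of the hippocampus with the neocortex gave the level of each gene by region without the deletion. By the quasi-likelihood test of edgeR, 21 of 30 members differed at an FDR of 5%, where 59% of the 13832 genes tested did. Of the reactive genes 7 rose in the hippocampus, 1 fell and 6 did not pass, and of the homeostatic genes 12 rose, 1 fell and 3 did not pass, where 29.4% of all genes were higher and 29.5% lower. The median log2 fold change was 0.43 for the reactive and 0.31 for the homeostatic genes, beside 0.0079 for all genes. This fit held no term for the library number. With numbers as blocks 22 members passed, among them 20 of these 21. RNA of each region was extracted with a kit of its own, so kit and region cannot be told apart. The listed choroid plexus and ependyma genes, which summed to 16.1 to 25.2 CPM in control neocortex, summed to 90.1 to 2747 CPM in control hippocampus, and their part in these differences was not tested.

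**Figure D5:**
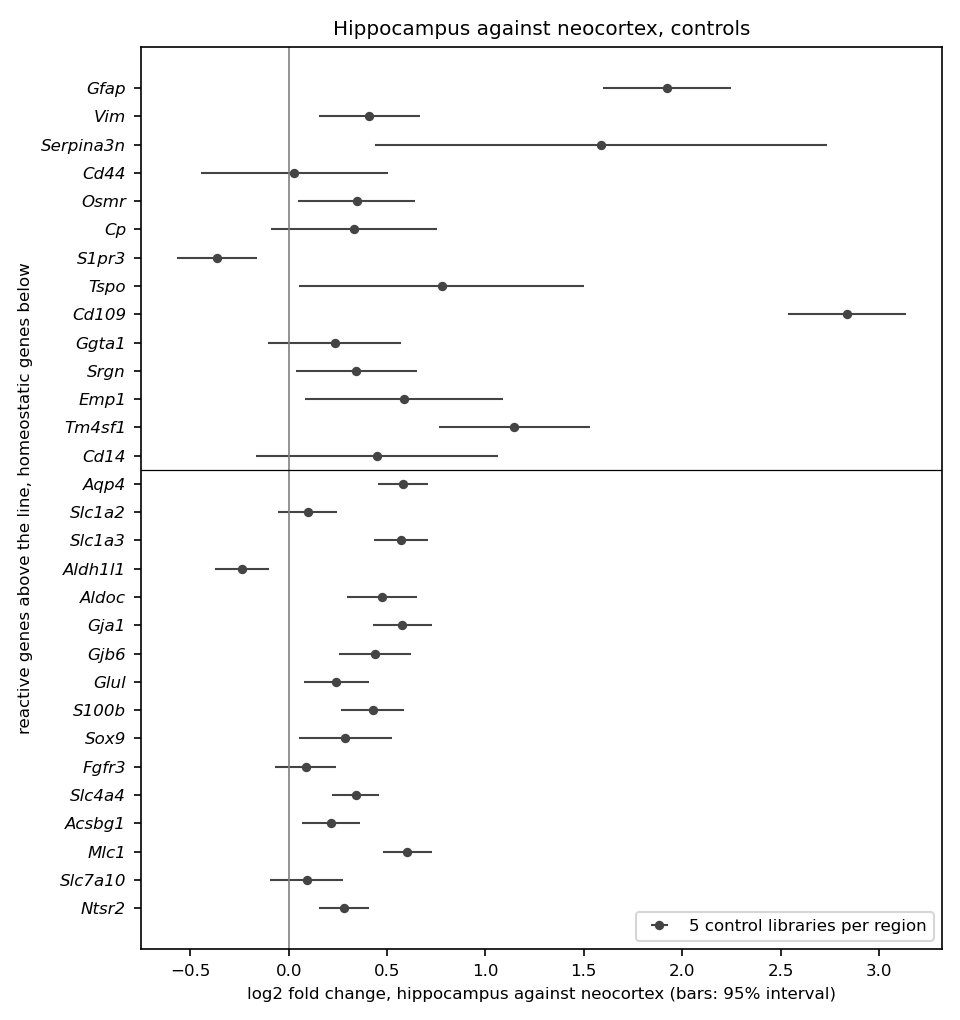
Log2 fold change of each tested member in control hippocampus against control neocortex (points) with its 95% interval (bars), 5 libraries per region. Cd109, Gfap, Serpina3n and Tm4sf1 lie furthest to the right, and S1pr3 and Aldh1l1 lie below 0.

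Cd109 rose most, from 1.52, 1.79, 1.65, 1.37 and 1.46 CPM in control neocortex to 12.1, 9.66, 10.1, 13.7 and 10.6 CPM in control hippocampus (log2 fold change 2.84, SE 0.14). Gfap rose by a log2 fold change of 1.92 (SE 0.15), with 76.4 to 149 CPM in the neocortex and 333 to 556 CPM in the hippocampus. Neither gene's libraries overlapped between the regions, as for 22.4% of all genes in that direction, and 14 of the 30 members had no overlap in either direction, beside 44.2% of all genes.

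Serpina3n rose by 1.59 on the log2 scale (SE 0.54, FDR 0.0195 by the quasi-likelihood test), and its libraries overlapped. Without control hippocampus library 5 the FDR was 0.0586 and the log2 fold change 1.17, while a fit with library numbers as blocks gave an FDR of 5.43e-08 and a log2 fold change of 1.79 (SE 0.13). The same block took the FDR of Emp1 from 0.0434 to 0.0580, that of Tspo from 0.0612 to 0.0142 and that of Srgn from 0.0533 to 0.0328, for 22 members called in place of 21.

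Tm4sf1 was 4.06, 4.18, 5.18, 3.52 and 4.72 CPM in control neocortex and 12.6, 9.62, 10.8, 9.22 and 5.75 CPM in control hippocampus (log2 fold change 1.15, SE 0.18), without overlap. Mlc1, a membrane protein of astrocyte endfeet, was 116, 122, 115, 124 and 120.3 CPM and 167, 208, 176, 173 and 189.5 CPM (log2 fold change 0.60, SE 0.058). It was the homeostatic gene with the largest rise, close to Aqp4 (0.58, SE 0.059), Gja1, the gene of connexin 43 (0.58, SE 0.070), and Slc1a3 (0.57, SE 0.065).

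The 2 members that fell in the hippocampus did so by less. S1pr3 was 10.4, 11.6, 11.9, 11.7 and 10.8 CPM in control neocortex and 9.39, 9.74, 7.22, 8.74 and 8.89 CPM in control hippocampus (log2 fold change -0.37, SE 0.095, FDR 0.00385 by the quasi-likelihood test). Aldh1l1 was 53.0 to 62.5 CPM in the neocortex and 42.4 to 51.1 CPM in the hippocampus (log2 fold change -0.24, SE 0.064, FDR 0.00522). Slc1a2 did not pass (log2 fold change 0.097, SE 0.070, 95% interval -0.053 to 0.25), nor did Fgfr3, a fibroblast growth factor receptor, and Slc7a10. In a single fit of all 20 libraries, 13 of the 21 calls were kept, and Vim, Osmr, S1pr3, Emp1, Aldh1l1, Glul, Acsbg1 and Ntsr2 were lost. With 1 of the 10 control libraries left out in turn, Osmr lost its call in 6 fits, Emp1 in 5 and Sox9 in 4.

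Other genes of the same biology gave no call between genotypes at an FDR of 5% in either region. Of 22 further reactive panel genes 15 were tested, with a median log2 fold change of 0.12 (neocortex) and 0.28 (hippocampus). These medians were not computed without cTKO neocortex library 5 or cTKO hippocampus library 4. Timp1 fell below the filter, at 0 to 0.227 CPM in control hippocampus and 3.49, 0.394, 0.742, 23.6 and 0.127 CPM in cTKO hippocampus libraries 1 to 5. The listed genes of gp130 and STAT3 signaling were 9 tested in the neocortex (median 0.0043) and 10 in the hippocampus (median 0.036). In the hippocampus 5 of them were positive and 5 negative, with log2 fold changes from -0.33 to 0.96. At an unadjusted p under 0.05, 2 were higher and 1 lower, beside 6.13% and 5.88% of all genes. Socs3 was 0.836 to 1.81 CPM in control hippocampus and 3.61, 1.84, 2.89, 3.35 and 1.27 CPM in cTKO hippocampus libraries 1 to 5. Of 34 further astrocyte genes all were tested, with medians of -0.067 and -0.099 and with 24 and 25 of them negative. Microglia genes, which mark the cells that often respond beside astrocytes, had medians of -0.088 and -0.014 over 10 genes. The fibroblast and meningeal list had a median of 0.46 in the neocortex and -0.094 in the hippocampus. All 9 choroid plexus and ependyma genes tested between hippocampal genotypes were negative (median -1.54), 5 of them at an unadjusted p under 0.05. The full list summed to 2747 CPM in control hippocampus library 3 and to 90.1 to 510 CPM in the other controls. The cTKO hippocampus libraries held 132 to 616 CPM and overlapped those other controls. The part of control library 3 in the negative values was not tested. Between control regions, 24 of the 34 astrocyte genes were higher in the hippocampus and 3 lower, beside 29.4% and 29.5% of all genes.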

How the data were processed

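Poly-A RNA of each tissue was sequenced as single-end reads, which the authors mapped to the mm10 genome with STAR 2.5.4a and counted per gene with HTSeq. The annotation and the strand setting are not given in the sources used here. The deposited values are raw counts, in 1 table per library. Of the 32 members, 15 overlap another gene in GENCODE M21 (GRCm38) and 13 overlap one on the opposite strand, so part of their reads may belong to it.

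Genotypes were compared within each region by edgeR 4.0.16 (R 4.3.3): TMM, genes over 1 CPM in at least 5 libraries, quasi-likelihood test, Benjamini-Hochberg adjustment over all genes tested. Printed CPM use TMM over all 20 libraries. Single genes were also compared by an exact two-sided permutation test of log2 CPM (prior count 2, 252 splits). RPKM used the union of GENCODE exons. Alternatives included DESeq2 1.42.0. The fits were tested on simulated data.

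Libraries are labelled replicates, and nothing says how a number links regions. Over all genes, deviations of same-numbered control libraries correlated across regions at 0.13 to 0.33 in all 5 pairs, so the numbers were taken as pairing control regions. The main comparison of control regions nevertheless left this pairing out, and the fit with numbers as blocks was an alternative. Those of cTKO libraries did so in 3 of 5 pairs (-0.071 to 0.40) and were not taken as paired. The closest 2 replicates differed by more than sampling noise (chi-square per degree of freedom 3.82).

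Members and lists were chosen with earlier results of these data known. Every library is given for Gfap, Vim, Serpina3n, Aqp4, Slc1a2, Slc1a3, Aldh1l1, members that passed a genotype test or whose genotypes did not overlap, and the 5 strongest passing rises and falls between regions. Other values given by library were chosen after they were seen.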

Additional observations from a re-analysis of the deposited data

Results flagged for a closer look

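Over 30 members and 4 groups, 9 of 120 checks (7.5%) found a library whose gap to its nearest neighbour exceeded Dixon's critical value of 0.71 for 5 samples, a criterion that chance meets in about 1 in 20 groups. In cTKO neocortex library 5, S1pr3 was 27.5 CPM (nearest other 11.1), Emp1 11.7 CPM (2.75) and Slc7a10 18.98 CPM (29.6). This library also held 761 CPM of the embryonic list, and the part of those genes' source in the 3 values was not tested. Vim was 232 CPM in cTKO hippocampus library 4 (64.5), whose embryonic list was at 503 CPM. The others were Cd44 at 8.75 CPM in cTKO neocortex library 4 (5.47), S100b at 121 CPM in cTKO neocortex library 3 (93.1), Sox9 at 46.6 CPM in cTKO hippocampus library 2 (59.3), and Slc4a4 at 207 CPM (243) and Acsbg1 at 127 CPM (152) in control hippocampus library 1.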

How the results depend on the processing

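Genotype calls among members changed in the hippocampus: Gfap passed under edgeR's exact test and its likelihood ratio test (1 reactive call), and Gjb6 under both, DESeq2 and the single fit of all 20 libraries (1 homeostatic call), with no call under the other alternatives. In the neocortex and in the interaction no member passed under any alternative run. Over all genes, the neocortex count of 26 became 167 (exact test), 167 (likelihood ratio test), 221 (DESeq2), 42 (no filter on low counts), 12 (replicate block), 62 (without cTKO libraries 4 and 5) and 7 to 133 with 1 library left out. The hippocampus count of 67 became 258, 259, 331, 189 (single fit of all libraries) and 15 to 149, and the interaction count of 8 became 26 (DESeq2), 18 (replicate block) and 5 to 20. Between control regions, the single fit of all libraries called 4 reactive genes in place of 8. The cause of these changes was not tested.

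Leaving out cTKO libraries 4 and 5, chosen after seeing the data, turned the sign in the neocortex of Cd44 (-0.0063), S1pr3 (-0.19), Ggta1 (-0.15), Srgn (-0.13), S100b (0.054), Slc4a4 (0.068), Slc7a10 (0.081) and Ntsr2 (0.10). Leaving out cTKO libraries 1 and 4 did so in the hippocampus for Vim (-0.019), Serpina3n (-0.11), Osmr (-0.0038), S1pr3 (-0.28), Tspo (-0.16), Ggta1 (-0.26), Aqp4 (-0.014), Aldh1l1 (-0.15) and Fgfr3 (-0.033). Without cTKO neocortex library 5 and cTKO hippocampus library 4, the interaction turned for Gfap (-0.21), Vim (-0.33), Serpina3n (-0.38), Ggta1 (-0.20), Aldh1l1 (-0.084) and S100b (0.045).

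With 1 library left out in turn, log2 fold changes took both signs in the neocortex for Aqp4 (-0.050 to 0.0059), Cd44 (-0.027 to 0.30), Cp (-0.043 to 0.095), Fgfr3 (-0.042 to 0.084), Ntsr2 (-0.10 to 0.044), S100b (-0.098 to 0.024), S1pr3 (-0.15 to 0.38), Serpina3n (-0.12 to 0.93), Slc4a4 (-0.064 to 0.016), Slc7a10 (-0.065 to 0.078), Srgn (-0.11 to 0.078) and Tm4sf1 (-0.014 to 0.13). In the hippocampus they did so for Aldh1l1 (-0.096 to 0.079), Cd109 (-0.064 to 0.20), Fgfr3 (-0.039 to 0.21), Ggta1 (-0.17 to 0.35), Ntsr2 (-0.065 to 0.16), S100b (-0.19 to 0.052), Slc7a10 (-0.024 to 0.26) and Tspo (-0.026 to 0.51), in the interaction for Acsbg1 (-0.068 to 0.12), Aldh1l1 (-0.015 to 0.17), Aldoc (-0.12 to 0.078), Emp1 (-0.98 to 0.32), Fgfr3 (-0.068 to 0.19), Gfap (-0.021 to 1.21), Ggta1 (-0.29 to 0.25), Mlc1 (-0.020 to 0.15), Ntsr2 (-0.055 to 0.17), S100b (-0.18 to 0.059), Serpina3n (-0.26 to 0.79), Slc1a2 (-0.041 to 0.15), Slc1a3 (-0.11 to 0.030), Slc7a10 (-0.0048 to 0.29), Sox9 (-0.0090 to 0.15) and Vim (-0.47 to 0.44), and between control regions for Cd44 (-0.11 to 0.17). None of these values had an FDR under 5% with all libraries.

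In the exact permutation tests of single genes, leaving out 1 library moved the difference of log2 CPM from 0.35 to 0.95 for Gfap, 0.34 to 0.60 for Vim, -0.055 to 0.0054 for Aqp4, -0.21 to -0.11 for Slc1a3 and -0.26 to -0.14 for Gjb6 in the neocortex, and from 0.81 to 1.53 for Gfap, 0.12 to 0.48 for Aqp4 and -0.097 to 0.068 for Aldh1l1 in the hippocampus. A prior count of 0.5 changed no such call.

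Same-numbered control and cTKO libraries did not all deviate together (correlations -0.0091 to 0.22 in the neocortex and -0.14 to 0.14 in the hippocampus), so the numbers were not taken as pairing the genotypes, and with the replicate block no member passed. Of the neocortex counts with 1 library left out, those without cTKO libraries 3 and 5 were 120 and 133 and the other 8 were 7 to 15, and the hippocampus count was 149 without cTKO library 5. Members near 1 CPM, such as Cd14 and, in the neocortex only, Cd109, rest on few reads, and differences in Lcn2 were not detectable at this depth.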
